A study of Homo sapiens with 7 samples.

Results

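The zinc finger genes of human chromosome 19 were taken as every gene on that chromosome whose symbol is ZNF followed by a number, with or without 1 final letter, and 226 of the 16686 gene symbols in the expression table met this rule. Expression had been measured by RNA-seq in N/TERT2G cells, a human keratinocyte line immortalized with telomerase. Cells of 4 libraries, named siYT A to D, had received pooled siRNAs against YAP1 and against TAZ (gene symbol WWTR1), the co-activators that the Hippo kinases hold in check and that reach DNA through TEAD factors. Those of 3 libraries, named siCON A to C, had received a non-targeting siRNA. Both siRNA treatments were given at 8 pmol per cm2 the day after plating, in EpiLife medium with keratinocyte supplement, and RNA was collected after 48 h, so the groups share the cell line, the lipid carrier and the time. All libraries come from 1 immortalized line, and no label says whether replicates were separate cultures, so each p-value speaks only to the scatter among these libraries, possibly a technical scatter.

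Most of these genes encode C2H2 zinc finger proteins, in which each finger is a short loop folded around a zinc ion by a pair of cysteines and a pair of histidines, and an array of fingers reads DNA sequence. Many carry a KRAB domain ahead of the fingers. KRAB recruits the co-repressor TRIM28 (KAP1), which in turn brings the histone methyltransferase SETDB1 and heterochromatin proteins, and the best known use of this machinery is the silencing of transposable elements. The family grew by tandem duplication, and chromosome 19 holds its largest clusters, so neighbours are often related in sequence.

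To show what these genes share, the DNA of a single finger is printed for 7 of them, including the 4 genes with the largest increase and the 2 intact genes that were called lower. Each is the first finger in the reading frame of the gene's GENCODE 44 canonical transcript on GRCh37 (hg19), written 5′ to 3′ on the coding strand, and each lies in the last exon. Capitals mark the codons of the 2 cysteines and 2 histidines that hold the zinc. The locations are chr19:11942511-11942573 on the plus strand for ZNF440 (exon 4 of 4), chr19:37618314-37618376 on the plus strand for ZNF420 (exon 5 of 5), chr19:37644261-37644323 on the minus strand for ZNF585A (exon 5 of 5) and chr19:37677899-37677961 on the minus strand for ZNF585B (exon 5 of 5). Those of the other 3 are chr19:52497651-52497713 on the minus strand for ZNF615 (exon 7 of 7), chr19:56156202-56156264 on the plus strand for ZNF581 (exon 2 of 2) and chr19:9677291-9677353 on the minus strand for ZNF121 (exon 4 of 4).
ZNF440: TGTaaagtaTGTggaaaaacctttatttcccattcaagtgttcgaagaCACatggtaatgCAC
ZNF420: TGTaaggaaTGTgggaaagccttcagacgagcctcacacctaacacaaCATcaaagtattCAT
ZNF585A: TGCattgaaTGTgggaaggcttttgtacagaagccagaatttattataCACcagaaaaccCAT
ZNF585B: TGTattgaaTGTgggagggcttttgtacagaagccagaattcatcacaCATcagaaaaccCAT
ZNF615: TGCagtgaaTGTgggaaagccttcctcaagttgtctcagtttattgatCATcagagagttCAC
ZNF581: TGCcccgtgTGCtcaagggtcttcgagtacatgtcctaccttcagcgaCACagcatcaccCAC
ZNF121: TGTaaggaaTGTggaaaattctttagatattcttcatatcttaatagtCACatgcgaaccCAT
Each run is 63 bases long and keeps the same spacing of the 4 marked codons. The first fingers of ZNF585A and ZNF585B, which are neighbours, differ at 6 of 63 bases. Of the 226 genes, 216 had a reading frame in GENCODE, with a median of 12 fingers (quartiles 9 and 15) and a highest count of 31 in ZNF91. The letters of a KRAB domain were found in 145 of the 216 reading frames. Those of the remaining 71 held none, by 1 fixed letter pattern that would miss a domain with other letters. ZNF274 had the KRAB letters, but 0 fingers were counted in its reading frame.

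Values are the authors' TMM-normalized signal, close to CPM in scale. Library totals were 941281 to 955106 in siCON and 866098 to 884761 in siYT, so they did not overlap. Total over lowest value gives roughly 20713247 to 23857599 reads per library. YAP1 fell from 231, 258 and 243 in the siCON libraries to 65.2, 64.5, 76.2 and 68.1 in the siYT libraries, and WWTR1 fell from 34.4, 36.9 and 37.3 to 4.90, 6, 6.30 and 5.19. Both groups were therefore as labelled. Keratinocyte markers (KRT5, KRT14, KRT17, TP63, ITGA6) summed to 39987 to 44247 in every library. Of the markers of other cells, MLANA, TYR, DCT, PDGFRA, PTPRC and CD3E had no entry in the table, the melanocyte sum was 1.98 to 3.23, the fibroblast sum 90.1 to 111.7 (mostly COL1A1) and the immune sum 48.3 to 62.8 (mostly CD68), with siCON and siYT overlapping in each sum. Single markers did change: TP63 (1.53-fold), ITGA6 (1.55-fold), COL1A2 (1.62-fold) and ITGAM (3.49-fold, from 0.495 to 0.553 in siCON to 2.75 to 4.12 in siYT) were called higher and COL3A1 (3.04-fold, from 1.94 to 2.12 in siCON to 0.272 to 0.392 in siYT) was called lower. Their part in the results was not tested. In bulk RNA, fewer cells expressing a gene and less RNA per cell cannot be told apart.

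The chromosome 19 genes were mostly expressed at a low level. Their mean signal over the 7 libraries ran from 0.164 (ZNF833P) to 110 (ZNF146), with a median of 5.76, and 18 genes had a mean over 20. Summed, they made up 1769, 1858 and 1884 units in siCON A, B and C, and 2036, 2075, 2073 and 2090 units in siYT A, B, C and D. The siYT sums were all above the siCON sums. As a share of each library's total this was 0.187 to 0.200% in siCON and 0.230 to 0.240% in siYT. The siYT totals were the smaller ones, so the share rises by more than the sum does. Per kb of transcript, the scale on which genes can be compared, ZNF581 had the highest siCON level (46 units per kb), followed by ZNF146 (31.9), ZNF358 (23.4), ZNF561 (17.6) and ZNF524 (11.2). In siYT the first place went to ZNF146 with 33.7 units per kb, and ZNF581 stood at 23.5.

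Loss of YAP1 and TAZ was followed by small increases spread over the family and by few decreases. Of the 202 genes with a mean signal of at least 1, 31 were higher in siYT (15.3%), 3 were lower (1.5%) and 168 were not called. A call needed an adjusted p under 0.05 (limma on log2(value + 0.5), Benjamini-Hochberg over all 13072 genes tested) and at least a 1.5-fold change. Among all genes tested by the same rule, 14.1% were higher and 13.2% were lower (27.4% in either direction), so the share of the family called higher was near the background and the share called lower was below it. With a pseudocount of 2 in place of 0.5, which shrinks the changes of low genes, 15 were called higher and 3 lower. No test of the list was made, since its members were chosen with results known. All 34 called genes had siCON and siYT values that did not overlap, which the call itself favours. The share without overlap among all called genes was not counted. The groups did not overlap in 109 of the 202 tested genes (91 with siYT above, 18 with siYT below), 54.0% of them, against 68.7% of all genes (34.1% above, 34.7% below).

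Small positive changes were spread across the family, and large ones were few. The median log2 fold change was 0.21 (quartiles 0.04 and 0.44), against 0.00 (-0.34 and 0.34) over all genes tested, and it was positive in 159 of the 202 genes (78.7%, against 50.3% of all genes). Without the fold requirement, 90 genes (44.6%, background 34.7%) passed the adjusted p upward and 15 (7.4%, background 34.9%) downward. Only 5 of the 202 changed by 2-fold or more, against 1250 of all 13072 genes tested. The median stayed positive under each of the 18 other settings tried, from 0.15 with a trend on transcript length removed to 0.32 with libraries set to equal totals, a scaling that moves the median of all genes to 0.11. Length was looked at because these transcripts are long, with a median of 4060 bases against 3321 over all tested genes.

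**Figure D1:**
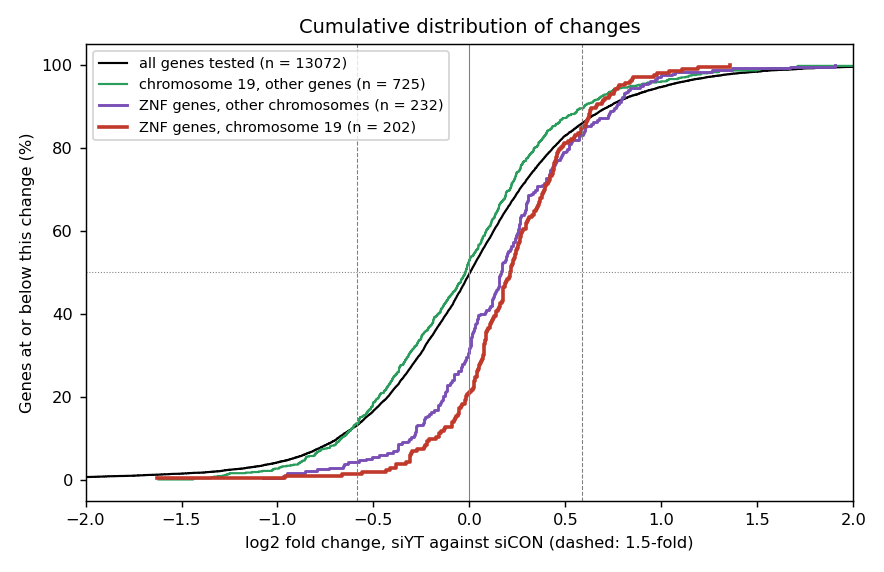
Cumulative share of genes (vertical axis, percent) at or below each log2 fold change of siYT against siCON (horizontal axis) for the 202 tested chromosome 19 ZNF genes, 232 ZNF genes of other chromosomes, 725 other chromosome 19 genes and all 13072 genes tested, with 1.5-fold marked by dashed lines. The chromosome 19 ZNF curve crosses 50% at 0.21, to the right of all genes at 0.00, and only 3 of its genes are called lower.

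Other sets of genes were counted in the same way to show where the family stood. ZNF genes on other chromosomes, 232 of 241 tested, gave 39 higher (16.8%) and 10 lower (4.3%). Their median log2 fold change was 0.16, and 68.1% were positive. Their share called higher was thus no smaller than that of the chromosome 19 family (15.3%). The 725 other tested genes of chromosome 19 gave 75 higher (10.3%) and 99 lower (13.7%), with a median of -0.02. Genes of any kind with a mean of 1 to 5 had a median of 0.04 and calls of 18.4% higher and 14.4% lower. The 74 chromosome 19 ZNF genes in that band had a median of 0.29, with 10 higher (13.5%) and 1 lower (1.4%). Between 5 and 20 the 110 ZNF genes had a median of 0.21, with 19 higher (17.3%, all genes 15.2%) and 1 lower (0.9%, all genes 13.4%). Above 20 the 18 ZNF genes had a median of 0.14, with 2 higher (11.1%, all genes 12.2%) and 1 lower (5.6%, all genes 12.8%). A further 10 tested C2H2 genes that lie in the same clusters under other names, such as HKR1 and the ZFP and ZSCAN genes, had a median of 0.29. Of these, ZIK1 (1.77-fold) and ZFP14 (1.54-fold) were called higher and 0 lower by limma, with 0 lower also at an unadjusted p under 0.05.

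The strongest increase was in ZNF440 (chr19:11925099-11946016, plus strand), a KRAB zinc finger gene with 10 fingers. Its signal was 8.11, 8.81 and 8.64 in siCON A, B and C and 22.6, 23.1, 22.4 and 22.2 in siYT A, B, C and D. The groups were far apart and narrow, with a log2 fold change of 1.36 ± 0.07 (SE, n = 3 and 4, 2.56-fold, limma adjusted p = 1.54e-10).

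ZNF420 (chr19:37498759-37621216), also named APAK, encodes a KRAB protein known to bind p53 and hold back its pro-apoptotic targets. It read 2.43, 2.91 and 2.82 in siCON and 6.89, 6.59, 7.08 and 6.76 in siYT. Every siYT library was above every siCON library, by 2.28-fold (log2 fold change 1.19 ± 0.10, adjusted p = 5.64e-08). ZNF585B (chr19:37672481-37709055) read 7.01, 6.65 and 6.32 in siCON and 15.9, 14.4, 15.4 and 14.1 in siYT, again without overlap and 2.16-fold higher (1.11 ± 0.08, adjusted p = 9.02e-09). ZNF585A lies next to it and shares sequence with it. It read 8.17, 9.72 and 8.63 in siCON and 11.2, 10.6, 11.1 and 9.13 in siYT. Here the groups overlapped, through siYT D and siCON B, and the change of 0.24 ± 0.09 was under the fold threshold (adjusted p = 0.0360). Of the 75-base windows of the ZNF585B transcript, 14.6% also occur in another gene, mostly ZNF585A, so the division of reads between the pair is uncertain.

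ZNF615 (chr19:52494585-52511483) read 4.64, 3.83 and 4.32 in siCON and 8.30, 9.33, 10.2 and 9.32 in siYT, 2.06-fold higher (1.04 ± 0.10, adjusted p = 2.18e-07). Its tested neighbours toward the higher coordinates, ZNF614 (0.71 ± 0.09, adjusted p = 2.34e-06) and ZNF432 (0.63 ± 0.10, adjusted p = 4.98e-05), were also called higher. ZNF432 lost its call without siCON A (0.52) or siYT C (0.58), with a pseudocount of 2 (0.54) and when the length trend was removed (0.51). ZNF350, on the other side of ZNF615, encodes ZBRK1, a BRCA1 partner that represses GADD45A, and its change of 0.23 was under the fold threshold (adjusted p = 0.0343). ZNF841, whose gene overlaps ZNF432 on the same strand, went from 14.8, 17 and 18.5 in siCON to 12, 12.9, 12.9 and 13.0 in siYT, a change of -0.38 that was also under the fold threshold (adjusted p = 7.52e-04). The direction thus turned within a single stretch of the cluster, but reads of the overlapping ZNF432 and ZNF841 could be exchanged, and this was not tested.

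The other genes among the 10 largest increases changed by 1.72-fold to 1.97-fold. ZNF559 read 2.30, 3.69 and 3.29 in siCON and 6, 7.25, 6.34 and 6.32 in siYT (0.98 ± 0.13, adjusted p = 8.69e-06), and reads of the overlapping ZNF177 and of the ZNF559-ZNF177 readthrough gene may enter its value. ZNF100 read 2.88, 3.69 and 3.09 in siCON and 6.89, 6.59, 6.50 and 6.84 in siYT (0.96 ± 0.11, adjusted p = 8.70e-07). ZNF266 had the highest signal of them, with 13.9, 15.8 and 16.1 in siCON and 27.1, 27.8, 27.0 and 28.6 in siYT (0.84 ± 0.07, adjusted p = 2.97e-08). In all 3 genes the siYT values lay clear of the siCON values. The remaining genes, ZNF567 (0.85, adjusted p = 4.36e-06), ZNF44 (0.81, adjusted p = 9.99e-07) and ZNF211 (0.78, adjusted p = 5.76e-07), showed the same separation. Separation was a condition for naming the 10 genes, so it is not a further result. These 10 genes kept their call in each of the 18 other settings that tested them, including without each library in turn, and apart from ZNF266 each had the KRAB letters in its reading frame.

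**Figure D2:**
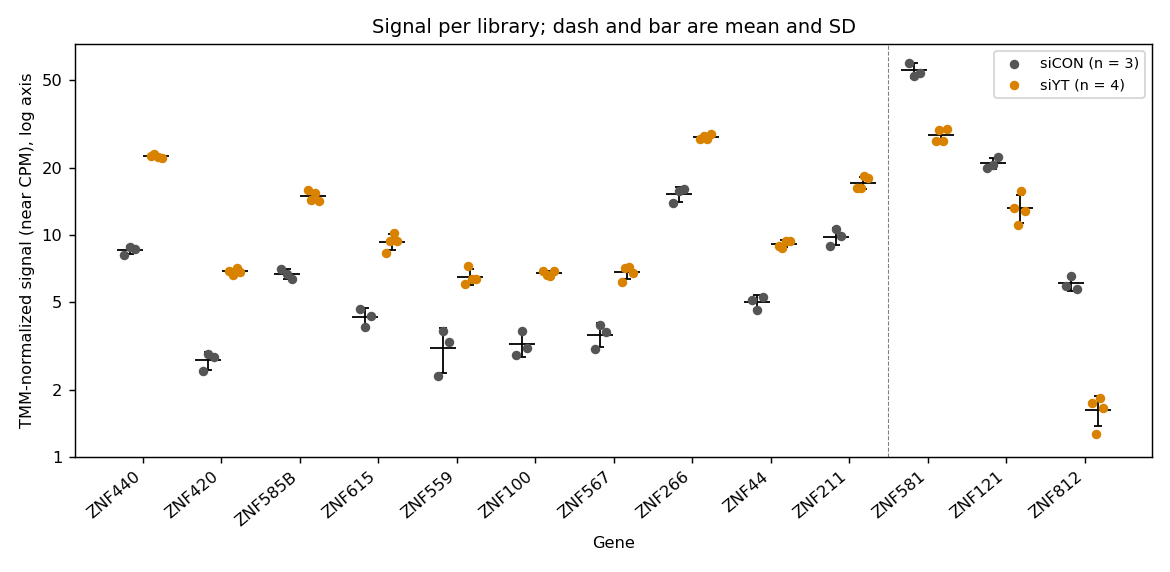
TMM-normalized signal (near CPM, log axis) of the 10 named genes with the largest increase and, right of the dashed line, the 3 genes called lower, with 1 point per library and the mean and SD of the 3 siCON and the 4 siYT libraries. No gene has overlapping groups, which was a condition for choosing all of them but ZNF812. ZNF812 is the lowest in siYT at 1.26 to 1.83.

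The 3 decreases were of unlike genes. ZNF812 had the largest change of the family, from 5.88, 6.55 and 5.70 in siCON to 1.75, 1.26, 1.83 and 1.65 in siYT (3.09-fold lower, log2 fold change -1.63 ± 0.13, adjusted p = 2.27e-08). RefSeq lists it as a transcribed pseudogene, ZNF812P. ZNF581 (chr19:56146825-56156988), a short gene with 4 fingers and no KRAB letters, read 59.7, 52.1 and 53.4 in siCON and 26.3, 29.6, 26.5 and 30.0 in siYT, 1.94-fold lower without overlap (-0.96 ± 0.07, adjusted p = 5.95e-09). It overlaps ZNF580 and CCDC106 on the same strand, so reads of the 3 genes could be exchanged. ZNF580 stayed at 9.74, 10.6 and 10.3 in siCON and 10.7, 9.14, 12.1 and 10.5 in siYT (0.05, adjusted p = 0.668).

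ZNF121 (chr19:9671029-9695209) read 20.1, 20.6 and 22.4 in siCON and 13.2, 11, 15.7 and 12.8 in siYT. The siYT libraries were more spread than in the genes above but all were below siCON, by 1.59-fold (-0.67 ± 0.10, adjusted p = 1.86e-05). With equal library totals the decrease was -0.56, under the fold threshold. ZNF121 and ZNF812 lie in the same cluster as ZNF559 and ZNF266, which rose. Within this stretch the order of tested genes along the chromosome was ZNF317 (0.34, adjusted p = 4.12e-05, not called), ZNF699 (0.21, adjusted p = 0.134), ZNF559 and ZNF266 (higher), ZNF426 (0.07, adjusted p = 0.468), ZNF121 (lower), ZNF561 (-0.23, adjusted p = 7.87e-04, not called), ZNF562 (0.09, adjusted p = 0.253), ZNF812 (lower) and ZNF846 (0.48, adjusted p = 0.00123, not called). Both directions therefore occurred within 1 cluster, between neighbours.

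Along the chromosome, genes were put in a new cluster wherever the gap to the next ZNF gene exceeded 1000000 bases, which gave 16 clusters. For comparison, 78.7% of the tested family were positive and 15.3% called higher, against 50.3% and 14.1% of all genes tested. In the cluster at 36.7 to 38.3 Mb all 22 tested genes had a positive log2 fold change, from 0.02 to 1.19 (median 0.30). Of these, 10 passed the adjusted p, and some signs are uncertain, as for ZNF793 (0.02 ± 0.11) and ZNF529 (0.03 ± 0.09). No other cluster held so long a run of positive genes without a break. It went from the cluster's first gene, ZNF565, to its last, ZNF573, and the nearest tested genes of the clusters on both sides, ZNF792 and ZNF546 (0.45), were also positive. Of the 22 genes, 7 were called higher: ZNF566, ZNF260, ZNF567, ZNF420, ZNF585B, ZNF527 and ZNF569. Without siCON A the call of ZNF260 was lost (0.58), without siCON C those of ZNF566 (0.57) and ZNF527 (0.48), without siYT B those of ZNF566 (0.54) and ZNF527 (0.56), and without siYT C that of ZNF566 (0.54). With a pseudocount of 2 those of ZNF566 (0.46), ZNF527 (0.42) and ZNF569 (0.55) were lost. The cluster at 11.6 to 12.8 Mb had the highest median of the clusters with more than 5 tested genes, 0.38, with 16 of 17 positive and 5 called higher. It held a run of 4 tested neighbours called higher, ZNF441, ZNF440, ZNF700 and ZNF433, with genes below the minimum signal between them. ZNF700 lost its call without siCON A (0.44) and ZNF441 without siCON B (0.51), and with a pseudocount of 2 the calls of ZNF441 (0.49), ZNF700 (0.53) and ZNF433 (0.34) were lost.

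The remaining clusters differed in size and median. The cluster at 19.8 to 22 Mb had 14 of 15 genes positive (median 0.35, 3 called higher), and that at 35.2 to 35.5 Mb had 4 of 5 (median 0.40), with ZNF792 called higher (0.75 ± 0.14, adjusted p = 1.95e-04, call lost with a pseudocount of 2 at 0.51). The cluster at 44 to 45.6 Mb had 17 of 22 positive (median 0.22, 2 called higher, ZNF180 at 0.73 ± 0.10 and ZNF235). With a pseudocount of 2 both calls were lost (ZNF180 0.58, ZNF235 0.49). The cluster at 52.1 to 54.1 Mb, which holds ZNF615, had 29 of 35 positive (median 0.18, 3 called higher). Lowest among the large clusters was the one near the end of the long arm, at 56.0 to 59.0 Mb, with a median of 0.06 over 56 genes, 36 positive, 4 called higher and 1 lower. With a gap of 500000 bases it split into a part at 56.0 to 57.1 Mb (median -0.04, 6 of 15 positive), which contains ZNF581, and a part at 57.7 to 59.0 Mb (median 0.08, 30 of 41 positive). Differences between clusters were not tested, because the genes of a cluster are not replicates.

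**Figure D3:**
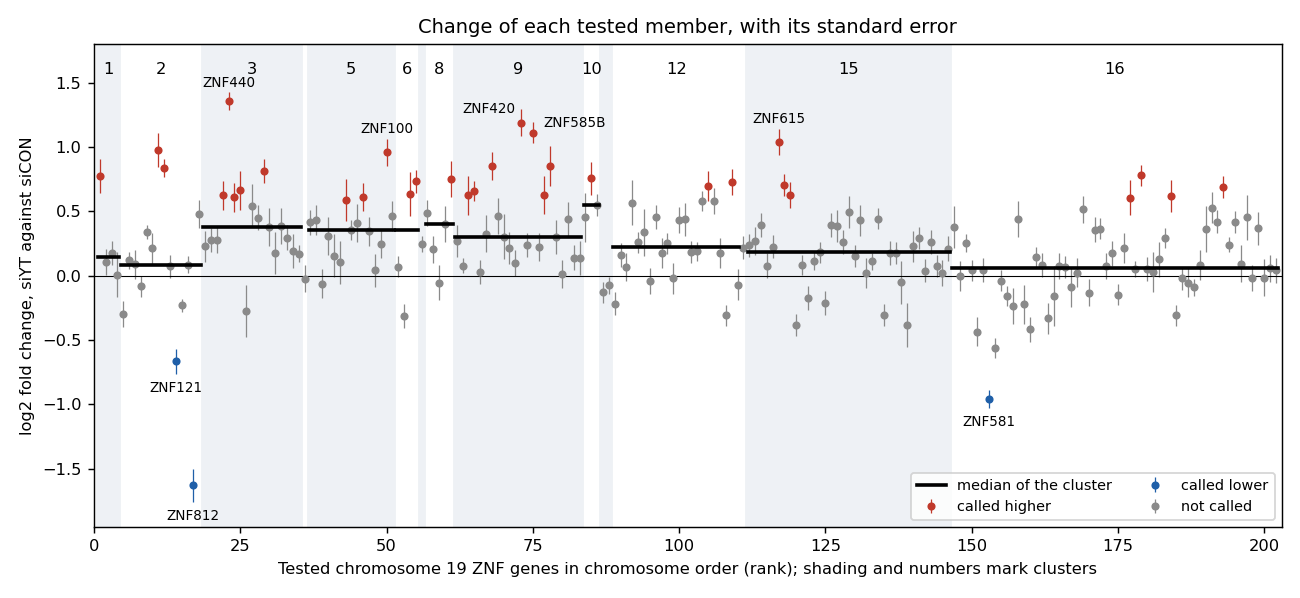
Log2 fold change of siYT against siCON (vertical axis, with SE) for the 202 tested chromosome 19 ZNF genes, placed by rank along the chromosome, with clusters numbered in chromosome order and their medians as black bars. Cluster 9, at 36.7 to 38.3 Mb, has all 22 genes above 0, 10 of them with an adjusted p under 0.05 by limma. The median of cluster 16, at 56.0 to 59.0 Mb, is 0.06.

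Neighbours were only a little more alike in their change than any other pair of the family. Of 187 pairs of neighbouring tested genes in the same cluster, 132 (70.6%) had the same sign, against 66.3% of all 20301 possible pairs. The median difference between neighbours was 0.29 on the log2 scale, against 0.31 for all pairs, and the correlation across neighbouring pairs was 0.22, a description across genes of the same 7 libraries.

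The number of fingers and the KRAB letters were set beside the change. The 53 tested genes with fewer than 10 fingers, ZNF274 among them, had a median log2 fold change of 0.09, with 4 higher (7.5%) and 2 lower. The 81 with 10 to 14 fingers had 0.22, with 17 higher (21.0%). The 63 with 15 or more had 0.26, with 10 higher (15.9%). Among all genes tested 14.1% were higher. Median transcript lengths of these sets, in that order, were 2978, 4207 and 3994 bases, and the part of length in this was not tested. The 135 genes with KRAB letters had a median of 0.21 and the 62 without had 0.20. The 62 may include genes whose KRAB domain the letter pattern missed, so this does not compare genes with and without the domain. Of the 135 with KRAB letters 23 were higher and 0 lower by limma, 10 being lower at an unadjusted p under 0.05. Of the 62 without, 8 were higher and 2 lower. The sets differ in size, and in both the share called higher was near the 14.1% of all genes tested. Strand made little difference, with medians of 0.20 on the plus strand (106 genes) and 0.22 on the minus strand (96 genes).

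Sequence shared between relatives bears on how far single values can be trusted. In the median gene 0.4% of the 75-base windows of its transcript also occur in another gene. The 146 tested genes with under 5% shared had 29 higher, 2 lower and a median of 0.23, and the 52 with 5% or more had 2 higher, 0 lower and a median of 0.17. Genes overlapping no other gene of the table (115 tested) gave 18 higher, 2 lower and a median of 0.20. Among all genes tested 14.1% were higher and 13.2% lower. The 52 genes with more shared sequence thus had few calls in either direction, although their median was positive. Genes with little shared sequence can still overlap another gene, as ZNF559 and ZNF581 do, and the part of shared reads in the results was not tested.

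Several members have known roles, and most of these did not pass the call. ZNF274, which binds the 3′ ends of zinc finger genes and brings SETDB1 there, read 27.3, 28.8 and 28.6 in siCON and 32.9, 33.0, 34.2 and 33.8 in siYT, a small separation of 0.24 ± 0.06 that was under the fold threshold (adjusted p = 0.00125). ZNF91, a repressor of SVA retrotransposons, read 23.5, 26.2 and 28.6 in siCON and 26.9, 24.8, 27.3 and 30.6 in siYT. Its groups overlapped (0.07, adjusted p = 0.453), and the sign turned when siCON A was left out (-0.00) or the length trend was removed (-0.08). ZNF587 (-0.09, adjusted p = 0.219) and ZNF417 (0.08, adjusted p = 0.524), a pair of relatives that bind and repress HERVK elements, also overlapped, and the sign of ZNF587 turned with equal library totals (0.02) and that of ZNF417 when siCON A was left out (-0.05) or the length trend was removed (-0.03). In their transcripts 18.6% and 29.3% of 75-base windows also occur in another gene.

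ZNF224, a repressor of the aldolase A gene, read 10.5, 13.5 and 13.4 in siCON and 14.8, 17, 16.8 and 19.4 in siYT. The groups did not overlap, and the change of 0.44 ± 0.10 was under the fold threshold (adjusted p = 0.00128), in a transcript with 47.7% of its windows shared. ZNF473, a U7 snRNP component in histone mRNA 3′ end formation, changed by 0.22 (adjusted p = 0.0418). ZNF675, an inhibitor of TRAF6 signalling, was among the few that passed the adjusted p downward, at 13.2, 14.7 and 14.7 in siCON and 10.8, 9.96, 11.5 and 13.3 in siYT (-0.31 ± 0.09, adjusted p = 0.00824), with siYT D above siCON A. ZNF331, an imprinted gene (0.21, adjusted p = 0.0621), ZNF304, a recruiter of silencing at INK4-ARF in colorectal cancer cells (0.07, adjusted p = 0.502, -0.04 with the length trend removed), ZNF160 (0.18, adjusted p = 0.0808), ZNF653 (0.23, adjusted p = 0.104) and ZNF568, whose mouse counterpart represses a placental Igf2 transcript (0.10, adjusted p = 0.415), did not pass. Nor did ZNF444 (-0.04, adjusted p = 0.694), whose sign turned without siCON C (0.03), with equal library totals (0.07) and with the length trend removed (0.09). ZNF382 was below the minimum signal, with a mean of 0.265.

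Of the 6 genes with the highest signal, ZNF581 was called lower, as given above, and the others were not called. ZNF146, which consists of fingers alone, read 98.7, 113 and 108 in siCON and 105, 113, 118 and 115 in siYT, with overlap (0.08, adjusted p = 0.240). ZNF561 read 75.5, 81.0 and 82.2 in siCON and 68.2, 65.6, 69.3 and 67.7 in siYT. All its siYT libraries were below siCON, by -0.23 on the log2 scale, under the fold threshold. ZNF358 (0.12, adjusted p = 0.111) overlapped between groups, as did ZNF587, and ZNF317 stood at 0.34. Of all 18 genes with a mean over 20, ZNF266 was one of the 2 called higher. Just past the fold threshold were ZNF85 (1.51-fold, adjusted p = 0.00487) and ZNF530 (1.52-fold, adjusted p = 0.00106), and just short of it ZNF227 (1.495-fold, adjusted p = 5.18e-06) and ZNF112 (1.496-fold, adjusted p = 1.22e-04). These calls turned with single libraries: ZNF85 was under the threshold without siCON A (0.50), siYT A (0.53) or siYT B (0.52), ZNF530 without siCON A (0.58), siCON B (0.55) or siYT B (0.52), while ZNF227 passed without siYT A (0.59), siYT B (0.60) or siYT D (0.59), and ZNF112 without siCON B (0.67), siCON C (0.60) or siYT A (0.64). Of the 24 genes below the minimum signal, which were not tested, 3 had siYT above siCON and 1 had siYT below siCON without overlap. The share among all genes of so low a signal was not counted, so no direction is read from these counts.

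The genes through which KRAB zinc finger proteins act were read from a list of 32 co-repressor, heterochromatin and DNA methylation genes, all tested. In these cells 2 were called higher (6.2%, background 14.1%) and 0 lower by limma, with 7 lower at an unadjusted p under 0.05, and the median log2 fold change was 0.07. ATF7IP, which stabilizes SETDB1 in the nucleus, rose from 47.9, 48.1 and 47.5 in siCON to 105, 102, 93.1 and 102 in siYT (2.09-fold, 1.06 ± 0.05, adjusted p = 1.05e-10). DNMT3B, a de novo DNA methyltransferase, rose from 4.64, 5.21 and 4.28 to 8.01, 7.88, 8.33 and 8.19 (1.66-fold, 0.73 ± 0.10, adjusted p = 5.64e-06). The groups of both genes lay clear of each other. TRIM28 itself, which lies at the end of chromosome 19, read 204, 191 and 203 in siCON and 162, 160, 173 and 165 in siYT. All siYT libraries were below siCON, and the change of -0.27 ± 0.05 was under the fold threshold (adjusted p = 1.29e-04). SETDB1 overlapped between groups (-0.04, adjusted p = 0.512), and its sign turned with equal library totals (0.07).

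**Figure D4:**
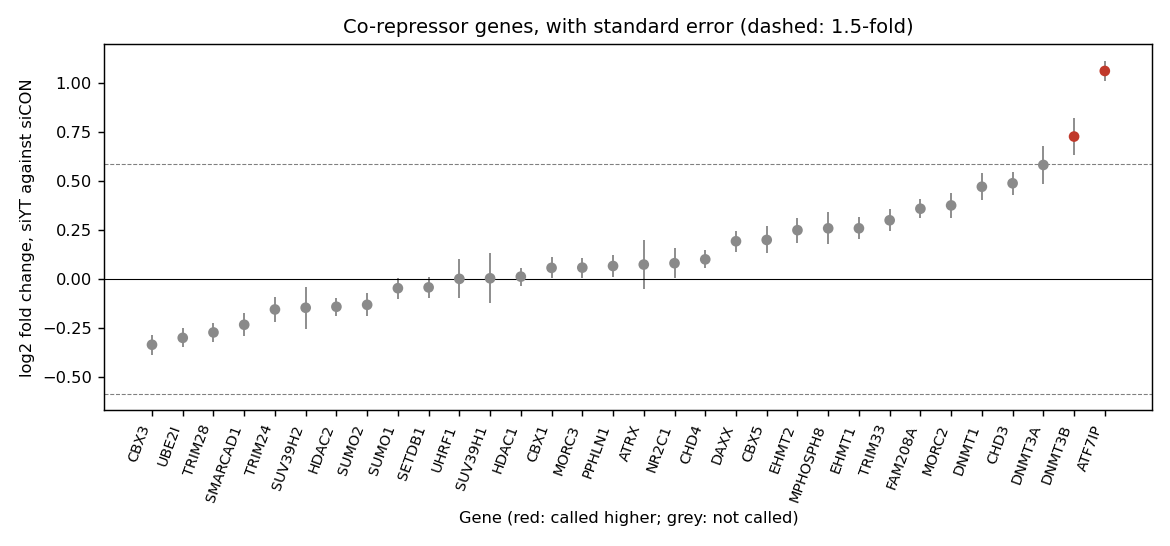
Log2 fold change of siYT against siCON (vertical axis, with SE) for 32 co-repressor, heterochromatin and DNA methylation genes, ordered by value, with 1.5-fold dashed and called genes in red. ATF7IP (1.06) and DNMT3B (0.73) are past the upper line, and TRIM28 stands at -0.27.

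Because YAP1 and TAZ reach DNA through TEAD, promoters were searched for the core TEAD motif GGAATG on either strand, with no mismatch. The windows are those of RefSeq on GRCh38.p14, from 250 bases before to 50 bases after each gene's start, and 195 of the 226 genes had one. ZNF440 and ZNF581 are shown, since both hold the motif and they changed in opposite directions. Capitals mark the motif, here read as CATTCC on the coding strand, at chr19:11814023-11814322 (plus strand) for ZNF440 and chr19:55643399-55643698 (plus strand) for ZNF581.
ZNF440: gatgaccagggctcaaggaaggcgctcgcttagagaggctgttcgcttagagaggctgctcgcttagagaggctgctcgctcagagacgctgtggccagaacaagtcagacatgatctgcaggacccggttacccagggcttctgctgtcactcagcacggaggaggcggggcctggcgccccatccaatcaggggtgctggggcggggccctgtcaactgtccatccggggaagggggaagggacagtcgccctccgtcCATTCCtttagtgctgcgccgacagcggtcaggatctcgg
ZNF581: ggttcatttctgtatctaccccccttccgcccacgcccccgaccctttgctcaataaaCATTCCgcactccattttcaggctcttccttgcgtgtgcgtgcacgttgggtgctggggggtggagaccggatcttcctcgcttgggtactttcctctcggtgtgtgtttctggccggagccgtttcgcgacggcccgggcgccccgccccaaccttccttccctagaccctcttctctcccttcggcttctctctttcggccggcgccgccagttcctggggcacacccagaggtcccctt
The motif occurred in 29 of the 195 promoters (14.9%), in 4 of 29 promoters of genes called higher (13.8%) and in 13.4% of those tested and not called. It was found in 11.1% of the promoters of all tested genes and in 14.2% of all 27305 promoters of the table. Genes called higher thus held it about as often as uncalled members. The KLF motif CCACACCC, which does not overlap it, was in 1.0% of the family's promoters, against 2.8% for all tested genes, and the E2F motif TTTCCCGC in 1.5% against 2.6%, both on either strand. The family's windows held a median of 21 CpG, against 26 for tested genes. These matches describe letters in short windows only, and no binding was measured here.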

How the data were processed

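RNA was prepared as poly(A) libraries with a TruSeq mRNA kit. The submitters' notes name cutadapt 1.18, STAR 2.6.1, Partek 8.0.19.0819 and hg19. Details of strand in the counting are not given in the sources used here. The deposited values are a signal per gene that the authors scaled by TMM after removing genes with few reads, and reads of near-identical genes were divided by their quantification. A second deposited table holds the authors' own comparison (p-values, ratios, fold changes, group means) and was not used.

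Of 18478 entries, 1792 repeats of a symbol were dropped. The 13072 genes whose average signal reached 1 were tested as log2(value + 0.5) with limma 3.58.1 (R 4.3.3, empirical Bayes with a mean-variance trend), siYT against siCON, without covariates. Fold changes are on that scale and understate those of low genes. The script was checked on simulated data. No count model was fitted. Transcripts, reading frames and fingers came from GENCODE 44 on GRCh37. Fingers were counted as 2 cysteines 2 to 4 residues apart, 12 residues, and 2 histidines 3 to 5 apart. Shared sequence was counted over windows of 75 bases.

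Members, lists and tests were chosen with earlier results of these data known. Named genes are YAP1 and WWTR1, per direction up to 10 called members of largest change (mean 5 or more, groups apart), the 6 with the highest mean, the leading called member of each cluster, members with known roles, TRIM28, SETDB1 and called co-repressors, and members nearest the fold threshold. Neighbours of these were named after their values were seen. Alternatives changed the pseudocount (0.1, 2), the filter, the scaling, the libraries, a block, the trend and transcript length.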

Additional observations from a re-analysis of the deposited data

Results flagged for a closer look

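ZNF473 in siYT B stood apart from its group, at 13 units against 12.1 to 12.2 in the other 3 siYT libraries. It was the 1 case among the 45 genes whose siYT groups were looked at in this way, and chance alone gives about 1 in 20.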

How the results depend on the processing

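The 34 called genes kept their sign in each of 18 other settings, and 15 kept their call in each setting apart from a minimum mean of 5, which leaves out genes of low signal. A pseudocount of 2 gave 15 genes called higher in place of 31, and the median log2 fold change of the family was then 0.17. That median was 0.18 with a minimum mean of 5, 0.32 with equal library totals, 0.18 with quantile normalization and 0.15 with the trend on transcript length removed. Equal totals, which move the median of all genes to 0.11, gave 4 co-repressor genes called higher in place of 2. Leaving out 1 library at a time gave 23 to 33 genes higher, 3 to 4 lower, medians of 0.20 to 0.23 and 2 to 3 co-repressor genes higher, and 22 of the 34 calls held in all 7 such fits. The lowest count, 23, came without siCON A. Of 44 named genes, 6 changed sign in some setting. With equal totals these were ZNF587 (0.02), ZNF444 (0.07) and SETDB1 (0.07), without siCON A ZNF91 (-0.00) and ZNF417 (-0.05), without siCON C ZNF444 (0.03), and with the length trend removed ZNF91 (-0.08), ZNF304 (-0.04), ZNF444 (0.09) and ZNF417 (-0.03). Without single libraries ZNF91 ranged from -0.00 to 0.14, ZNF444 from -0.11 to 0.03 and ZNF417 from -0.05 to 0.17. The cause was not tested. The labels do not say whether the letters A to C pair libraries of both groups. Same-letter correlations were 0.025 to 0.183 and those of other letters -0.213 to 0.176. These ranges overlap, and so few libraries cannot decide it. With the letter as a replicate block, 33 genes were higher and 3 lower, with a median of 0.20. With siYT A and B averaged, 32 were higher and 3 lower.

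Depth limits the genes of low signal most. Transcript length was known for 98.0% of the tested family and 88.3% of all tested genes.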
